A study of Mus musculus with 28 samples.

Results

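Untreated bone marrow-derived macrophages of the mouse were described here from the 7 arrays titled as untreated, out of 28 arrays in the series. They were chosen by that title alone. Gene names were ordered by their mean log2 scanner signal over these arrays, and the scanner software's call "well above background" was used for presence. No comparison with another treatment was made. The cells came from the marrow of C57BL6/J mice aged 8 to 12 weeks, and the labels name 2 males and 1 female. Marrow cells of several animals were pooled and grown in human recombinant CSF1 at 200 ng/ml. Medium was replaced on day 5, and the cells were replated with CSF1 on day 6. From day 7 these cultures received nothing further, whereas the other arrays hold cells given LPS, IL-4 or IFN-γ, alone or in sequence. Total RNA was labelled with Cy3 and hybridised to single-colour oligonucleotide arrays. The 7 arrays carry experiment letters A to G. Whether a letter stands for a separate pool of animals is not stated, so the spread between arrays may be partly technical.

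Macrophages are phagocytes that take up particles and dying cells and digest them in lysosomes. CSF1, through its receptor tyrosine kinase Csf1r, drives marrow progenitors to become macrophages, and keeps them alive and dividing. Cells grown this way are widely used as resting macrophages to which microbial products or cytokines are then added.

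On the dimmest array the 75th percentile of gene spot signals was 1188 intensity units and on the brightest 2113, and no spot was saturated. Of the 27670 gene names, 66.1% (array B) to 79.1% (array G) had a probe well above background on an array. Of 153 negative control spots on each array, 0.654% to 3.92% received the same call. Across gene names, which are not independent, pairs of arrays correlated at r = 0.9425 to 0.9891, and the 6 pairs with array G at 0.9425 to 0.9592. Arrays A and B were scanned on 1 day, C and D on another, and E, F and G each on a day of their own. Deviations from the gene means correlated at 0.48 for A with B and 0.429 for C with D, and at -0.566 to 0.156 for the other pairs. Limma's moderated F test over scan days, with Benjamini-Hochberg adjustment, called 0 of 16893 genes (0%). Its smallest adjusted p was 0.0598, and 5772 genes (34.2%) had an unadjusted p under 0.05, so an absence of scan day differences was not shown. With normexp background correction 202 genes (1.2%) did, and the smallest adjusted p was 0.981. The letters themselves are in doubt for C to G. Each scanner file matched 1 untreated column of the deposited value table at r of 0.9995 or more, but for these 5 arrays that column bore another letter. Only the 7 untreated columns were compared, and the letters below are those of the scanner files.

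Of the gene names, 16963 (61.3%) were well above background on all 7 arrays, 7353 (26.6%) on 1 to 6 and 3354 (12.1%) on none. With the scanner software's more lenient call of positive and significant signal, 705 were on none. Values below are log2 signals relative to the array's 75th percentile, so that 0 is the brightness of the spot at that percentile, and means are given with the SD over arrays. A gene with several probes was represented by the brightest. A probe's brightness depends on its own sequence as well as on the transcript, so the order is one of brightness and not of molecules. The bright class was the top 5% of names, 1384 in all, and began at 3.89. Top2b (3.90 ± 0.32, SD, n = 7) lay just inside it and Psmd14 (3.89 ± 0.28) just outside. The dim class was the lowest 25% of the names on 7 arrays, 4241 names at or below -3.07. Dnah1 (-3.07 ± 0.61) was just inside it. Names on no array had a median of -8.33.

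**Figure D1:**
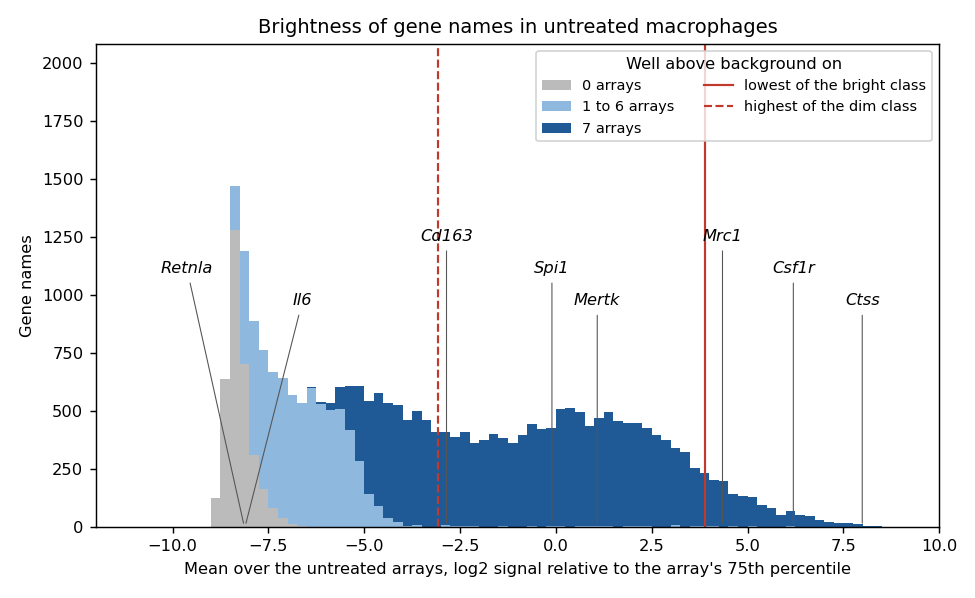
Histogram of the mean log2 signal over the 7 untreated arrays for 27670 gene names (x axis, relative to each array's 75th percentile), stacked by the number of arrays on which the gene was well above background. The red lines mark the lowest bright name at 3.89 and the highest dim name at -3.07, and named genes run from Retnla at -8.13 to Ctss at 7.99.

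The 40 brightest names were mostly genes of a few kinds. Iron storage was represented by the ferritin light chain Ftl1 (8.13 ± 0.33), its near-identical copy Ftl2-ps (8.19 ± 0.36) and the heavy chain Fth1 (8.00 ± 0.21). S100a4, a calcium-binding protein of motile cells, had 7.72, 8.28 and 8.63 as the lowest, median and highest array and a mean of 8.22 ± 0.30. Lysosomal proteins followed, with Ctss (7.99), Ctsd (7.71), Lyz2 (7.71), Ctsl (7.57), Grn (7.52), Lyz1 (7.48) and Ctsb (7.41). The surface and effector genes Adam8 (7.78), Mpeg1 (7.76), Pirb (7.75), Trem2 (7.46) and Lgals3 (7.41) were among them, as was Spp1 (7.55), the secreted matrix protein osteopontin. Class I antigen presentation gave H2-K1 (7.95), H2-Q2 (7.90), H2-Q10 (7.55), H2-Q7 (7.54), H2-D1 (7.52) and H2-T23 (7.48). These genes, like Lyz1 and Lyz2, resemble one another closely, and a probe may read several of them. Ribosomal genes were Rps23 (7.80), Rplp1 (7.75), Rpl7a (7.65), Rps14 (7.63), Rps18 (7.57), Rplp2 (7.56), Fau (7.52) and Rplp0 (7.47). Aldoa (7.70) of glycolysis, Tmsb4x (7.69) and Myl6 (7.40) of the actin cytoskeleton, and Clic1 (7.40) were also there. Lars2 (7.81), LOC56628 (8.02) and one transcript known only by an identifier completed the 40 with the pair described next. Of 1364 bright genes on all 7 arrays and measured on each, 354 had array E as the array farthest from their mean and below it. Array G was next in that count with 135 and array D had 109. Above the mean, array G was the farthest for 157, array F for 121 and array E for 10. The same count was not made over all genes.

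The 2 names at the head of the order rested on single probes. Lrrc58 had a mean of 8.30 ± 0.21 by its brightest probe, while its 3 other probes averaged 1.76, -3.92 and -3.98. Ptprz1, a receptor phosphatase best known from glia, had 8.26 ± 0.21 by 1 probe. Its 3 others averaged -6.88, -6.92 and -8.48 and were well above background on 2, 3 and 0 arrays. The files hold no probe sequences, so which transcript the bright probes read was not tested. Of 8914 genes with several probes, 744 had a probe on all 7 arrays and another on none.

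The labelled cell type was matched by its markers. Of 36 macrophage surface and identity genes, 33 were on all 7 arrays and 22 were bright, against 61.3% and 5.00% of all names. Their median was 5.04, against -3.64 for all names. Mpeg1, a pore-forming protein of phagosomes, had 7.32, 7.82 and 7.97 as the lowest, median and highest array. Adgre1, which encodes the F4/80 antigen, had 6.81, 7.33 and 7.39. Array E was the lowest for both. Trem2, a lipid-sensing receptor, averaged 7.46 ± 0.23, the Fc receptor Fcgr1 6.81 ± 0.26 and the adaptor Tyrobp 6.68 ± 0.26. Csf1r itself averaged 6.19 ± 0.36 over 6 arrays, since its brightest spot on array D was flagged as an outlier. Array G held the highest value, 6.90, and the other 5 ran from 5.94 to 6.25. A further Csf1r probe averaged 4.32 ± 0.40 and the last -0.42 ± 0.45, both on all 7 arrays. Mrc1, the mannose receptor, had 3.75, 4.43 and 4.75 as its lowest, median and highest values and a mean of 4.35 ± 0.35, with arrays F and G lowest.

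The remaining defining markers spread over a wide range. Cd68 (6.11 ± 0.09), a lysosomal membrane protein, varied little between arrays, as did the integrin chain Itgb2 (5.27 ± 0.13). Cd14 (5.83 ± 0.18), the LPS co-receptor, and Itgam (4.07 ± 0.23), the integrin chain CD11b, were bright too. Mertk, a receptor for apoptotic cells, was lower, at 0.25, 1.30 and 1.67 for the lowest, median and highest array. The dimmest on all 7 arrays were P2ry12 (-1.30), Cd163 (-2.85) and Tmem119 (-3.62), of which P2ry12 and Tmem119 are best known from microglia. Vsig4, Timd4 and Clec4f, markers of resident macrophages of liver and peritoneum, were well above background on 5, 4 and 3 arrays. In RNA from whole cultures, fewer cells of a type and less RNA per cell cannot be told apart.

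**Figure D2:**
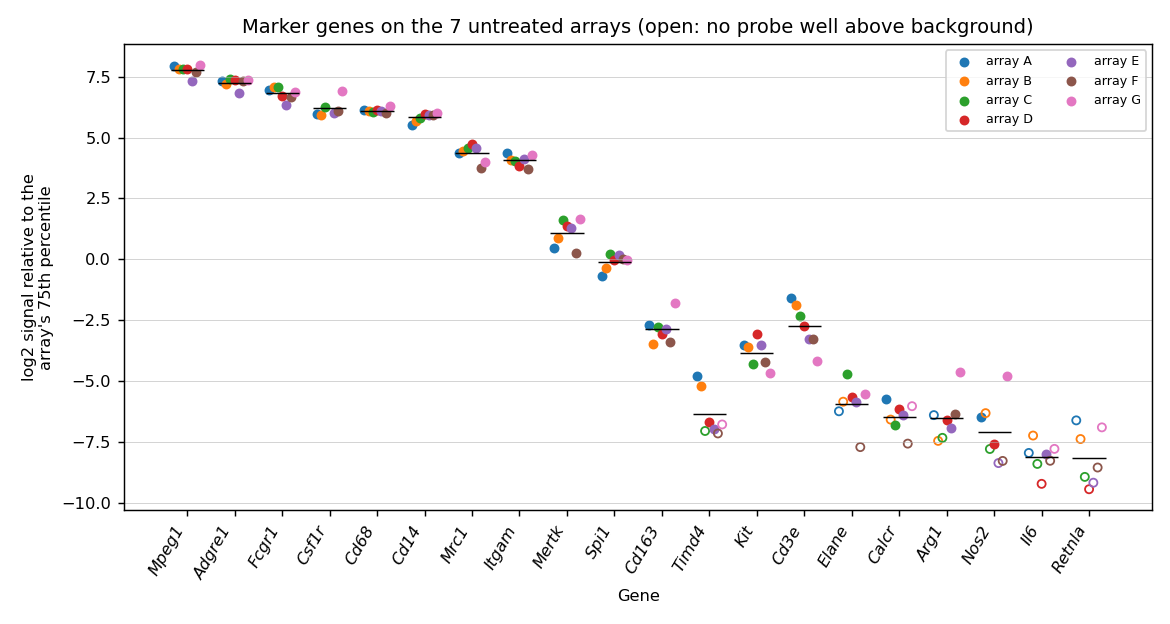
Log2 signal relative to the array's 75th percentile (y axis) of 20 genes on each of the 7 untreated arrays, with the mean as a line and open circles where no probe was well above background. Mpeg1 to Itgam lie above 3.72 on every array, whereas Retnla is open on all 7 and its highest value is -6.60.

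Lineage transcription factors were nearly all present. Of 38, 37 were on all 7 arrays, 10 were bright and the median was 2.30. Klf2 (6.01 ± 0.55), Junb (5.45), Klf6 (5.22), Nfe2l2 (5.19), the regulator of antioxidant genes, and Jund (4.84) were the 5 brightest. Maf (4.70 ± 0.28), which restrains macrophage self-renewal, and Irf8 (4.36 ± 0.35) were bright. Spi1, which encodes PU.1, the master regulator of the lineage, had only 1 probe, with -0.67, -0.04 and 0.20 as the lowest, median and highest array. The dimmest on all arrays were Egr1 (-1.89), Bhlhe41 (-2.16) and Irf4 (-2.60). The factors of particular tissue macrophages were weaker than these as a list. Of 11, 9 (81.8%) were on all 7 arrays, against 61.3% of all names. None was bright, against 5.00% of all names, and the median was -3.57, close to the -3.64 of all names. Gata6, of peritoneal macrophages, averaged -5.19 ± 1.13 and Sall1, of microglia, -4.34 ± 0.79, both well above background on all 7 arrays. Spic, of red pulp macrophages, averaged -1.58 ± 1.70, with array D low at -4.85 among a group of low neighbouring spots described below.

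Promoters of the macrophage list were set beside those of all genes. RefSeq promoter windows on GRCm38.p6 (250 bases before to 50 after the start) matched 14728 protein-coding names. The short core of the PU.1 motif, GAGGAA on either strand, lay in 15 of 26 macrophage promoters (57.7%), against 26.9% of all 14728. It also lay in 12 of 21 promoters of T and NK cell markers (57.1%) and in 26.8% of bright promoters. A match is a description of letters and not a binding site. Below are the 250 bases before the start, 5′ to 3′ on the gene's strand, with this core in capitals. Trem2 (chr17:48346151-48346400, plus strand), Fcgr1 (chr3:96293970-96294219, minus) and Cd68 (chr11:69666171-69666420, minus) are the 3 brightest with the core there among the list members considered. The promoter table has no entry for Adgre1 or Tyrobp. Genes of 1 chromosome, Csf1r (6.19) among them, were passed over in choosing sequences, whether or not they hold the core. Mpeg1 (chr19:12460520-12460769, plus), the brightest of the list, has none, and Retnla (chr16:48842359-48842608, plus), on no array, has 1.
Trem2: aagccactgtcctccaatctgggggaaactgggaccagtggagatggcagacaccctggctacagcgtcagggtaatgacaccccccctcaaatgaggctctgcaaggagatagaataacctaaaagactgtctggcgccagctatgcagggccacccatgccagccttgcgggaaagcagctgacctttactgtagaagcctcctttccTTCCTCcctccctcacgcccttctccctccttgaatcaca
Fcgr1: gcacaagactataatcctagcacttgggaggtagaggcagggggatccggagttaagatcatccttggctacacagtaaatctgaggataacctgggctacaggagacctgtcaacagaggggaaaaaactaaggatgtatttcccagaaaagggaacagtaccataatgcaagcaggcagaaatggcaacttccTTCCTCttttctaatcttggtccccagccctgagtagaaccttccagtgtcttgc
Cd68: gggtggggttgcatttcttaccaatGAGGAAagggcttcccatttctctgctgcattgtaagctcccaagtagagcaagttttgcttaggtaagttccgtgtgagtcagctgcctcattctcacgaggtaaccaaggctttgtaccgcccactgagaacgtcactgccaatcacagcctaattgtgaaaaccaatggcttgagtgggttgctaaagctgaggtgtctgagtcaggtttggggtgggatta
Mpeg1: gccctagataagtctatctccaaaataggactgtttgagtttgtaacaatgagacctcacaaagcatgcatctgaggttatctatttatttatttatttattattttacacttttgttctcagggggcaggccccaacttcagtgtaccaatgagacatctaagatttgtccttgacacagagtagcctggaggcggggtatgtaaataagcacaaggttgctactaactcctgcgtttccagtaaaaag
Retnla: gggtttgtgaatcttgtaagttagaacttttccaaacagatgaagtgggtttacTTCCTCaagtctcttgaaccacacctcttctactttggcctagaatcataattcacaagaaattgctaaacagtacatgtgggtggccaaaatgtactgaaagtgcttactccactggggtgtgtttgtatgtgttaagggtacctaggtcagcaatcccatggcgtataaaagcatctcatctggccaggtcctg
The core began 40 bases before the start in Trem2, 55 in Fcgr1, 225 in Cd68 and 196 in Retnla. These windows held 1 to 4 CpG dinucleotides each. In the full windows, 11.5% of macrophage list promoters had at least 10 CpG, against 64.3% of all promoters.

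Most lysosomal proteases, hydrolases and membrane proteins were bright, and fewer of the proton pump genes were. All 18 lysosomal proteases and inhibitors were on 7 arrays and 12 were bright, with a median of 6.04. Ctss (7.71, 8.04 and 8.09 as lowest, median and highest), the protease that trims the class II invariant chain, led, before Ctsd (7.71 ± 0.12), Ctsl (7.57), Ctsb (7.41) and Ctsz (6.86 ± 0.08). The dimmest were Ctse (-1.98), Ctsk (-2.03), the collagenase of osteoclasts, and Ctsw (-5.53), best known from cytotoxic lymphocytes. All 39 lysosomal hydrolase and membrane genes were on 7 arrays, 25 were bright, and the list median was 4.48. After Lyz2, Grn and Lyz1 came Psap (7.36 ± 0.24), the precursor of sphingolipid activators, and Cd63 (6.74 ± 0.20). Npc1 (2.26), which exports cholesterol from lysosomes, Arsb (-0.06) and Acp5 (-1.01) were lowest. Of 20 proton pump genes 18 were on all arrays and 7 bright, led by Atp6v0e (6.15) and Atp6v1f (5.89). The subunit Atp6v1b1 was on 5 arrays and Atp6v0a4 on 2, both known from kidney.

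The E-box CACGTG, which the lysosomal regulators Tfeb and Tfe3 can bind, lay in 8 of 33 promoters of lysosomal hydrolase and membrane genes (24.2%), against 8.66% of all promoters. Tfeb averaged -1.74 ± 0.34 and Tfe3 0.68 ± 0.32. With the chromosome passed over above left out again, the 2 brightest members in the promoter table with this E-box, in capitals, were Lamp1 (chr8:13158911-13159160, plus strand), a main lysosomal membrane protein, and Mcoln1 (chr8:3500269-3500518, plus), a lysosomal cation channel.
Lamp1: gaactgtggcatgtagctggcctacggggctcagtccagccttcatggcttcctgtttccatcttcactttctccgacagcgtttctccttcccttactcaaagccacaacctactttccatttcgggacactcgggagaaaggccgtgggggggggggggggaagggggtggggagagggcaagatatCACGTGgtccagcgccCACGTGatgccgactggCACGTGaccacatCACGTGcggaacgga
Mcoln1: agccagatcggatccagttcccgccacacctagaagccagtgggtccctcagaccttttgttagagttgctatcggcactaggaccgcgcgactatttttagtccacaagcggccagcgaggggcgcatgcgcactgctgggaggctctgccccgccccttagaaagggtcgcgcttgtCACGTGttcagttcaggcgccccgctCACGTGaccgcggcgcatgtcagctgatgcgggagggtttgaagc
Lamp1 held 4 copies within 61 bases of the start, and averaged 6.60 ± 0.23. Mcoln1 held 2 copies and averaged 4.29 ± 0.26.

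Receptors for uptake were bright in part. Of 32 scavenger and phagocytic receptors and their ligands, 29 were on all arrays and 11 bright, with a median of 2.56. Cd5l, a secreted scavenger protein, led at 7.35 ± 0.36. Gas6 (6.07 ± 0.17), the ligand that bridges apoptotic cells to Mertk and Axl, Itgb5 (5.79), Mfge8 (5.35) and Lrp1 (5.13) followed. Havcr1 (-4.69) and Tyro3 (-5.25) were dimmest on all arrays, and Olr1, an endothelial receptor for oxidised LDL, was on 1. Of 21 Fc receptor and signalling genes 18 were on all arrays and 8 bright. Pirb (7.75 ± 0.38), an inhibitory receptor for class I molecules, Fcgr1, Fcer1g (6.25), Plcg2 (5.39) and Fcgr3 (5.31) led. The IgE receptor chain Fcer1a was dim at -3.96. Among 27 complement genes 5 were bright, properdin (Cfp, 6.89 ± 0.11), C1qc (6.88), C3 (5.77), C1qb (5.73) and C1qa (5.53). The terminal components C7, C8a and C9 were on 1, 1 and 3 arrays.

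**Figure D3:**
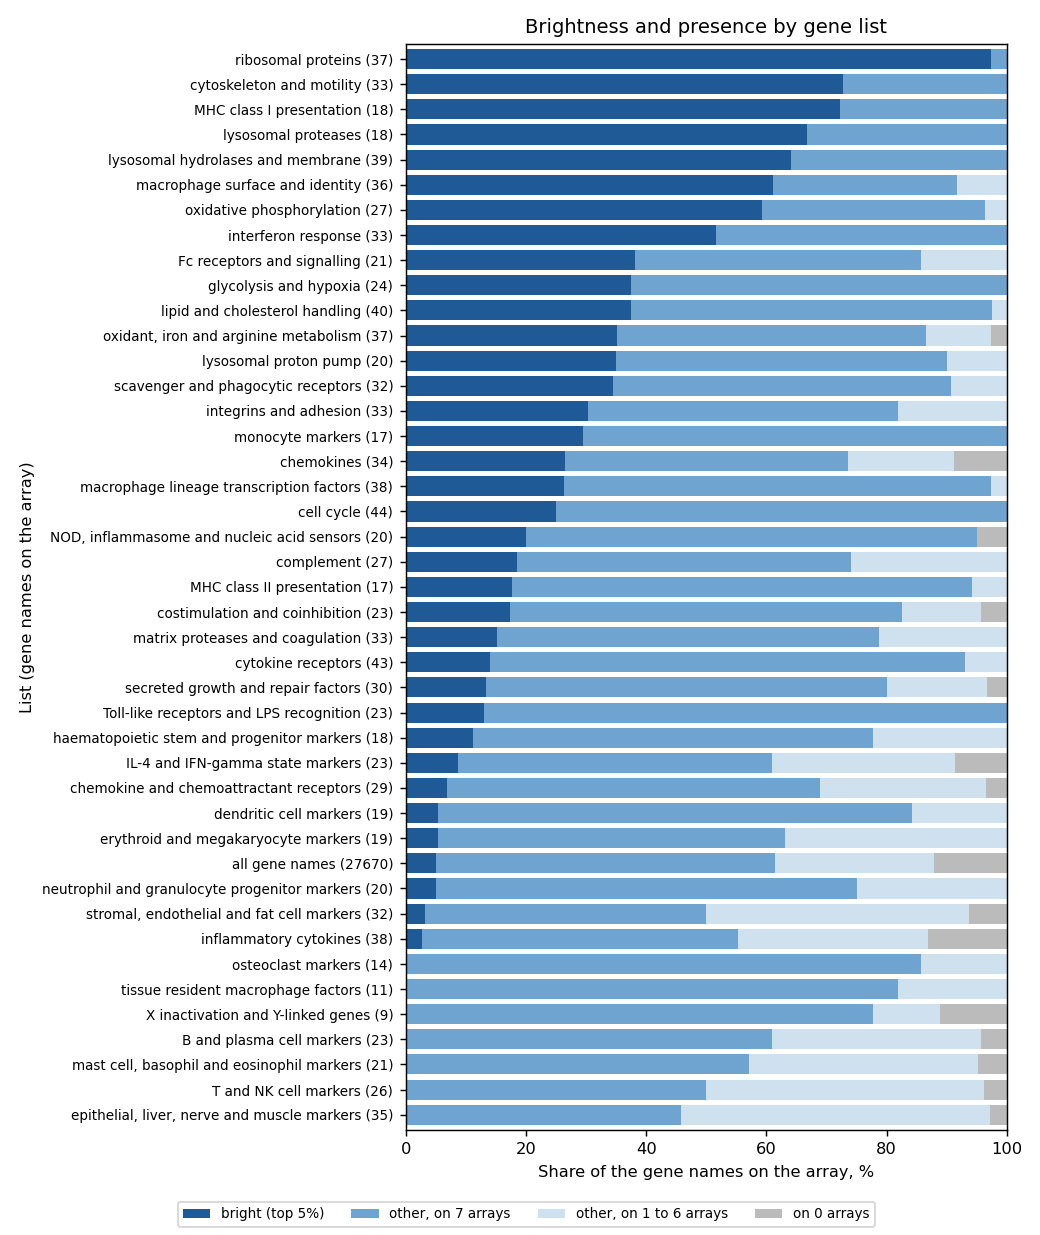
Share of each list's gene names (x axis, percent) that were bright, otherwise on all 7 untreated arrays, otherwise on 1 to 6, or on none, with the number of names on the array in brackets. Ribosomal genes have the largest bright share with 36 of 37, all gene names have 5.00%, and 7 lists have none.

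Sensing of microbes was present without being among the brightest functions. All 23 Toll-like receptor and LPS recognition genes were on 7 arrays and 3 were bright, with a median of 1.22. These were Unc93b1 (6.46 ± 0.30), which brings the nucleic acid receptors to endosomes, Cd14 and Tlr2 (4.54 ± 0.25). Myd88 (3.51), the common adaptor, and Tlr7 (3.41) came next, and Tlr4 averaged 2.25 ± 0.25 with 1.99 to 2.71 over the arrays. Tlr5 (-2.02), the flagellin receptor, Ticam2 (-2.62) and Lbp (-4.39), mainly a liver product, were dimmest. Of 20 NOD, inflammasome and nucleic acid sensors 19 were on all arrays. Zbp1 (5.09), Pycard (4.84), Casp1 (4.72) and Casp4 (4.12) were bright, whereas Nlrp3 averaged -2.10 ± 0.24. Aim2, a sensor of cytosolic DNA, was not well above background on any array.

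Inflammatory cytokines were present less often than these sensors, and about as often as all names. Of 38, 21 (55.3%) were on all 7 arrays, against 61.3% of all names. Only 1 (2.63%) was bright, against 5.00%, and the median was -3.91, close to the -3.64 of all names. The bright one was Ebi3 (5.24 ± 0.20), a shared cytokine subunit, followed by Mif (3.65), Tnfsf13 (3.19), Tgfb1 (1.95) and Il18 (1.28). Tnf had -0.48 on array G as the lowest, 1.28 as the median and 2.00 on array F as the highest value. Il1b had -4.29, -3.69 and -1.12, and array G was the highest. Il10, an anti-inflammatory cytokine, averaged -1.60 ± 0.25. Il6, a main product of LPS-treated macrophages, was on 1 array, as was Ifng, and Il12b on 6. Ifna4, Il17a, Il5, Il21 and Il33 were on none, and the last 4 are mainly products of lymphocytes or epithelial cells.

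Chemokines divided between bright and dim members. Of 34, 25 (73.5%) were on all arrays, against 61.3% of all names. Bright members were 9 (26.5%), against 5.00%, and 9 were dim, against 15.3%. The median was -3.29, against -3.64 for all names. Ccl9 (6.15 ± 0.18), Pf4 (5.79 ± 0.26), Ccl6 (5.22 ± 0.21), Ccl2 (4.68 ± 1.85) and Ccl4 (4.55 ± 0.41) were brightest. Ccl17 (-4.35), Ccl28 (-4.78) and Cxcl12 (-5.10), made mainly by stromal cells, were dimmest on 7 arrays, and Cxcl13, Ccl11 and Cxcl5 were on none. Of 29 receptors for chemokines and other attractants 2 (6.90%) were bright, against 5.00% of all names. Among them was Ccr2 (4.23 ± 0.45), the receptor for Ccl2. Ackr3 was on none. Among 43 cytokine receptors 40 were on all arrays and 6 bright, among them Csf2ra (6.67 ± 0.08), Ifngr1 (6.24 ± 0.20), Csf1r and Il10rb (5.74 ± 0.18). The IL-4 receptor chain Il4ra averaged 2.69 ± 0.44.

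Part of the interferon response genes were bright without added interferon. All 33 were on 7 arrays and 17 (51.5%) were bright, against 61.3% and 5.00% of all names. Their median was 3.93, against -3.64. Bst2, the antiviral protein tetherin, had 6.83, 7.13 and 7.37 as lowest, median and highest array. Ifitm3 (6.60 ± 0.17), which blocks viral entry, Parp14 (6.30), Ifit3 (5.83 ± 0.35) and Oasl2 (5.67) followed. Eif2ak2 (2.16), the kinase PKR, Ifi44 (1.73) and Slfn5 (0.90 ± 0.24) were dimmest. Array E was the lowest for 23 of the 33 genes, against 16.7% of all genes on 7 arrays, and array C the highest for 17, against 9.95%. Ifnb1, one of the cytokines that induce them, averaged -4.31 ± 0.62.

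The promoters of these genes shared a motif. A pair of the GAAA blocks of the interferon-stimulated response element (ISRE), written as GAAA, any 2 bases and GAAA on either strand, lay in 17 of 25 interferon response promoters (68%), against 3.29% of all promoters and 5.24% of bright ones. Such elements are bound by complexes that hold Stat2 and Irf9. Stat2 averaged 4.09 ± 0.32 and was bright, and Irf9 averaged 2.51 ± 0.15. Sequences were again chosen without the chromosome passed over above. The 3 brightest members considered with the pair in the 250 bases before the start were Bst2 (chr8:71537473-71537722, minus strand), Ifit3 (chr19:34583279-34583528, plus) and Igtp (chr11:58199306-58199555, plus), a GTPase of vacuole defence at 5.20 ± 0.14. Capitals mark the pair, and matches may overlap.
Bst2: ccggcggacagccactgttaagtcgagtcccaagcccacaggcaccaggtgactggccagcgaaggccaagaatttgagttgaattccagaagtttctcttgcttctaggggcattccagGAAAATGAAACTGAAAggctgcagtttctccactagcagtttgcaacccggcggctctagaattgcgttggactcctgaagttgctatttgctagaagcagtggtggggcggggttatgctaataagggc
Ifit3: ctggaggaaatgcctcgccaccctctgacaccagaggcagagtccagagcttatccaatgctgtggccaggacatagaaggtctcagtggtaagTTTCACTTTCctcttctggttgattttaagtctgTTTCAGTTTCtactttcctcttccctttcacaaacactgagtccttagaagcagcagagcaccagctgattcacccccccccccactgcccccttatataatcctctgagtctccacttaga
Igtp: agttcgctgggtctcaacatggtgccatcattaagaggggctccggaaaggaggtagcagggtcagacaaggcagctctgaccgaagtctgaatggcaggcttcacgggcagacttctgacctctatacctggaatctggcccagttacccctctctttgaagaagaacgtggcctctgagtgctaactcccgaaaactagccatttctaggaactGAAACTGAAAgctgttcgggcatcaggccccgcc
In Bst2 the matches began 130 and 124 bases before the start and overlap. Ifit3 has 2 separate matches at 156 and 122, and Igtp has 1 at 34.

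Antigen presentation differed between the classes. All 18 class I genes were on 7 arrays and 13 were bright, with a median of 5.19. B2m (6.70 ± 0.32), the invariant light chain, was bright, and the transporter genes Tap2 (2.69) and Tap1 (2.58) were lower. Of 17 class II genes 16 were on 7 arrays and 3 bright, Ctss, the invariant chain Cd74 (5.10 ± 0.47) and H2-Ab1 (4.81 ± 0.64). Rfx5 (-2.94) and H2-Ob (-4.01) were dimmest, and Ciita, the switch of class II transcription, averaged -0.41 ± 0.95. Class II genes were highest on array G in 12 of 16 cases, against 29.1% of all genes on 7 arrays. Of 23 costimulation genes 4 were bright, led by Sirpa (7.11 ± 0.20), which reads the "do not eat me" signal, and its ligand Cd47 (5.49). Vtcn1 was on no array.

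Genes used to mark IL-4 or IFN-γ states were spread much as all names were. Of 23, 14 were on all arrays (60.9%, against 61.3% of all names) and 2 were bright, Clec10a (4.73 ± 0.47) and Mrc1. Their median was -4.04, against -3.64 for all names. The next were Acod1 (3.07 ± 0.43), which makes itaconate, Chil3 (1.52) and Egr2 (0.83). Arg1, which breaks down arginine, was on 4 arrays and Nos2, which makes nitric oxide from it, on 3. The highest value was on array G for both, -4.61 for Arg1 and -4.78 for Nos2. Retnla, a product of IL-4-treated macrophages, and Ubd, of IFN-γ-treated cells, were on none. Ccl24 (-4.04), Ccl17 and Ido1 (-5.39) were the dimmest on all arrays.

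Bright members made up most of the oxidative phosphorylation list and a smaller part of the other metabolic lists. Of 27 oxidative phosphorylation genes 16 were bright, led by Cox6a1 (7.35), Cox4i1 (6.10 ± 0.08) and Cox5a (5.74). The median SD over arrays of this list was 0.191, against 0.317 for all genes on 7 arrays and 0.236 for bright ones. All 24 glycolysis and hypoxia genes were on 7 arrays and 9 bright, with Aldoa, Gpi1 (6.52) and Ldha (6.30) ahead and Car9 and Egln3 (-3.21), both induced by low oxygen, last. In lipid handling 39 of 40 genes were on all arrays and 15 were bright. Lpl (7.05 ± 0.15), which releases fatty acids from lipoproteins, Plin2 (6.91), the coat of lipid droplets, Apoe (6.40 ± 0.67) and Npc2 (5.93) led. Of 37 oxidant, iron and arginine genes 13 were bright, among them Gpx1 (6.83), Sod1 (6.37) and Prdx1 (5.64 ± 0.09). Hamp, the iron hormone of liver, was on none. Cytoskeletal genes were bright in 24 of 33 cases, with Gsn (7.31), Flna (7.04) and S100a6 (7.03) behind S100a4 and Tmsb4x. Fscn1 (-4.05), a protein of dendritic cell protrusions, was the dimmest of them.

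The cultures carried cell cycle transcripts. All 44 cell cycle genes were on 7 arrays and 11 were bright, with a median of 2.55. Pcna, the replication clamp, had 4.87, 5.74 and 6.17 as lowest, median and highest array. Mcm6 (5.49 ± 0.61), of the replicative helicase, Mki67 (4.96 ± 0.31), Gmnn (4.84) and Birc5 (4.83) followed. Cdc25c (-1.86), Cdk2 (-2.45) and Cdkn2a (-3.90 ± 0.27), an inhibitor of the cycle, were dimmest. Array G was the lowest for 32 of the 44 genes and array F the highest for 33, against 15.1% and 14.4% of all genes on 7 arrays. The median deviation of the list was 0.53 on array F and -0.63 on array G. The CCAAT box lay in 23 of 34 promoters of these genes (67.6%), against 38.6% of all. Pcna (chr2:132253181-132253430, minus strand) and Mcm6 (chr1:128359706-128359955, minus) were the 2 brightest in the promoter table with one before the start, in capitals. The chromosome passed over above was left out here too.
Pcna: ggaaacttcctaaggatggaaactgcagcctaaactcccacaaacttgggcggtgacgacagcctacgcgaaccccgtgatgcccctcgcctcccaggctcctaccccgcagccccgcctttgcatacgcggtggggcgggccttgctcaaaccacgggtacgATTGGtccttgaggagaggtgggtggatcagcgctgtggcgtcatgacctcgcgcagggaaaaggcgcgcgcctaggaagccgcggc
Mcm6: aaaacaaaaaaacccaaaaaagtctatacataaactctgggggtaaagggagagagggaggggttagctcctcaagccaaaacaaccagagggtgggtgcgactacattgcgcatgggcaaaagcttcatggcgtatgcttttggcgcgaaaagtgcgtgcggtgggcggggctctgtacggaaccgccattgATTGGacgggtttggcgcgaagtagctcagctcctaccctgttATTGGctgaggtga
The box began 87 bases before the start in Pcna, and 57 and 14 bases before it in Mcm6.

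Differences among the untreated arrays were small for most genes. The SD over arrays had a median of 0.317 on the log2 scale for the 16963 genes on all 7, with 0.134 and 0.842 as the 5th and 95th percentiles. It was 0.236 for bright and 0.591 for dim genes, and it was over 1 for 323 genes (1.90%). The steadiest genes were Uimc1 (2.45 ± 0.03), Mrps31 (2.18 ± 0.04) and Kpna6 (2.36 ± 0.04). Only 4 bright genes measured on all 7 arrays had an SD over 1. They were Ccl2, Ccnd1 (3.90 ± 1.06), a cyclin induced by growth factors, Scd2 (4.94 ± 1.04), a desaturase of fatty acids, and Tfap2e (4.26 ± 1.00), a transcription factor gene.

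Ccl2, the chemokine that recruits monocytes, had 6.03 on A, 4.94 on B, 3.01 on C, 5.11 on D, 6.04 on E, 6.31 on F and 1.33 on G. Array G was lowest and array C second lowest, and the other 5 lay between 4.94 and 6.31. Ccl7 followed the same order at its low end, with -0.05 on array C and -1.91 on array G, and 1.64 to 3.14 elsewhere. Myc, a growth regulator, had -1.47 on C and -1.95 on G, and 0.21 to 1.75 elsewhere. All 7 sterol synthesis enzymes of the lipid list, a part picked from it, were lowest on array G, against 15.1% of all genes on 7 arrays. Of these enzymes Sqle had no value on array D. Among them Fdps had 1.72 on G and 3.59 to 4.56 elsewhere, and Hmgcs1 2.56 on G and 3.57 to 4.95 elsewhere. Scd2 had 2.61 on G and 5.02 to 5.69 elsewhere. Other genes were highest there. Apoe had 7.66 on G, 6.92 on C and 5.84 to 6.34 on the other 5. Apoc2 had 3.59 on G, 2.81 on C and 0.66 to 1.42 elsewhere. Thbs1, a matrix protein gene, had 0.53 on G, -0.03 on C and -3.32 to -2.09 elsewhere. Array G was scanned on a day of its own and had the most names above background, and the part of either in these differences was not tested.

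**Figure D4:**
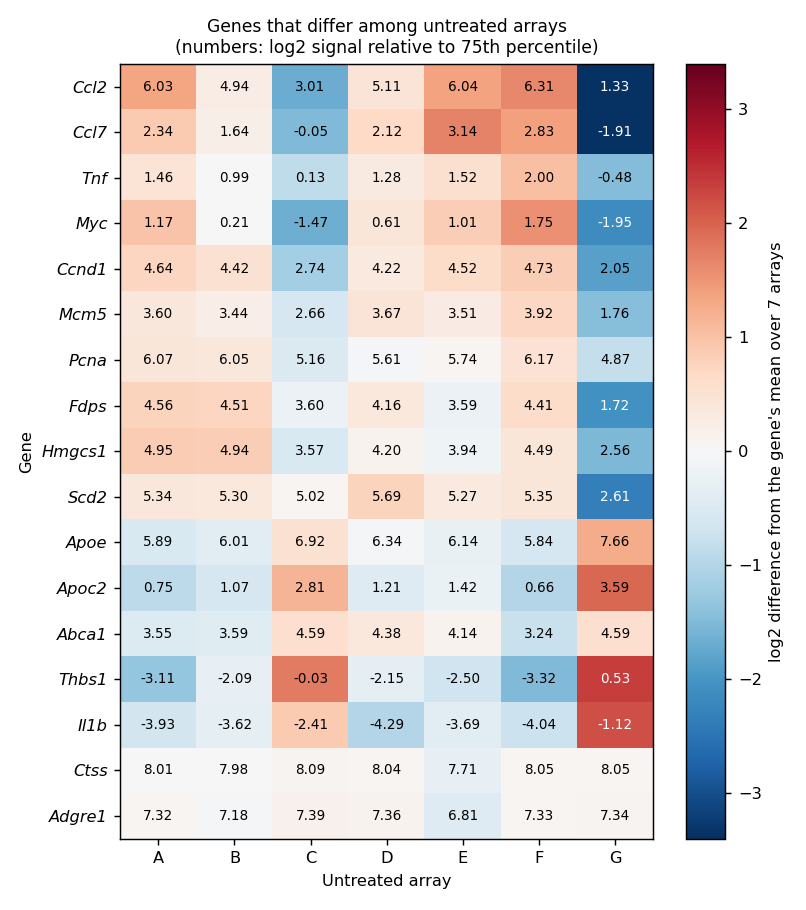
Log2 signal of 17 genes on each untreated array (numbers in the cells, relative to the array's 75th percentile), coloured by the difference from the gene's mean over the 7 arrays. Ccl2 runs from 1.33 on array G to 6.31 on array F and Apoe from 5.84 on F to 7.66 on G, while Ctss stays between 7.71 and 8.09; the genes were chosen after their values were seen, with Ctss and Adgre1 for comparison.

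Part of the largest spread came from low spots of array D. Of the 20 genes with the largest SD, 9 (Dctn1, Topbp1, Eepd1, Rffl, Nop53, Gpr171, Spic, Eya1 and Pdhx) were lowest on array D at a spot over 8-fold below its median on the other arrays. Dctn1 had -4.90 on D and 2.33 to 3.22 elsewhere, and Topbp1 -5.77 on D and 0.74 to 2.11 elsewhere. Counting only spots that were above a fixed low level on every other array, array D had 69 such spots, array G 16 and the other 5 arrays none. On D 40 of the 69 lay within rows 247 to 271 and columns 1 to 21, near one edge, and the spots of Topbp1, Eya1 and Pdhx lay in rows 225 to 235 close by.

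Markers of other cell types showed what else the cultures could hold. For T and NK cells 0 of 26 were bright and 13 (50%) were on all arrays, against 5.00% and 61.3% of all names. Their median was -5.49. Cd5 (-0.06) and Cd28 (-0.09) were highest, Cd3e averaged -2.75, Cd8a -5.55, and Gzma was on none. Of 23 B and plasma cell markers 14 (60.9%) were on all arrays and 0 were bright, against 61.3% and 5.00% of all names. Ighm led at 3.23 ± 0.80 with 4.86 on array G, and its 2 other probes averaged 1.01 and -8.18. Cd79a averaged -4.59, and Rag2 was on none. Among 20 neutrophil and progenitor markers 15 (75%) were on all arrays, against 61.3% of all names. The 1 bright marker (5%, against 5.00%) was S100a9 (4.20 ± 0.36). S100a8 averaged 0.49, Mpo -0.30 and Ltf 0.44, while Elane was on 4 arrays. Array A was lowest for 10 of the 15 on all arrays, against 9.82% of all genes on 7 arrays, and their median deviation there was -0.72. Of 14 osteoclast markers 12 (85.7%) were on all arrays, against 61.3% of all names. None was bright, against 5.00% of all names, and their median was -1.67, against -3.64. Ctsk averaged -2.03 and Calcr was on 4 arrays. Of 19 dendritic cell markers 16 (84.2%) were on all arrays, against 61.3% of all names, and 9 were dim, against 15.3%. Their median was -3.62, close to the -3.64 of all names. Only Bst2, an interferon response gene too, was bright among them, and Flt3 averaged -4.05 and Zbtb46 -3.37. The stem cell markers Kit and Cd34 averaged -3.83 and -1.27. Of 19 erythroid and megakaryocyte markers 1 (5.26%), Pf4, was bright and 5 were dim, against 5.00% and 15.3% of all names. Hbb-bt averaged -2.30 and Alas2 -5.22. The mast cell genes Cpa3 and Ms4a2 were on 4 arrays and 1.

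Of 32 stromal, endothelial and fat cell markers 16 (50%) were on all arrays, against 61.3% of all names. Among 35 epithelial, liver, nerve and muscle markers 16 (45.7%) were. In the stromal, endothelial, nerve and muscle lists the brightest members had probes that disagreed. Acta2, the only bright one of them, averaged 4.89 ± 0.36 by 1 probe, and its 4 others averaged -2.35 to -8.14. Mbp averaged 3.49 ± 0.24, and its 2 others -3.07 and -5.57. For Vwf 2 probes averaged 3.44 and 1.26 and a further probe -6.41. Col1a1 averaged -3.64, Col1a2 -1.97 and Cdh5 -3.09, Pdgfra was on 4 arrays, and Lep and Ibsp were on none. Xist, from the inactive X chromosome of females, averaged 3.13 ± 0.36, and the Y-linked Eif2s3y 1.40 ± 0.24 and Ddx3y 0.05 ± 0.22, each on all 7 arrays. Usp9y was on none.

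CpG content was alike in bright promoters and those between bright and dim, and lower in the dimmer classes, with no test made. Windows with at least 10 CpG made up 80.5% of 993 bright promoters and 82.6% of 7705 promoters between bright and dim, against 64.3% of all 14728. They made up 46.2% of dim promoters, 36.8% of those on 1 to 6 arrays and 26.8% of 924 on none. The GC box GGGCGG lay in 65.7% of bright promoters, 64.5% of those between, 41.1% of dim ones and 22.5% of those on no array, and in 52.0% of all. The TATA box TATAAA ran the other way at the low end, with 23.7% on no array, 6.96% between bright and dim and 10.98% in bright promoters, and 12.0% of all. An ETS site CCGGAAGT lay in 8.46% of bright promoters, 0.974% of those on no array and 5.95% of all. The CCAAT box was in 38.9% of bright and 38.6% of all promoters. Both strands were searched. The other motifs searched were the longer PU.1 core GAGGAAGT (4.23% of bright and 2.76% of all), the CRE TGACGTCA (3.12% and 2.57%), the AP-1 site TGANTCA (6.34% and 6.80%) and the NRF1 site (GCGCA followed by TGCGC, 2.52% and 1.49%). GAGGAAGT contains GAGGAA. All 25 ribosomal promoters in the table had at least 10 CpG.

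**Figure D5:**
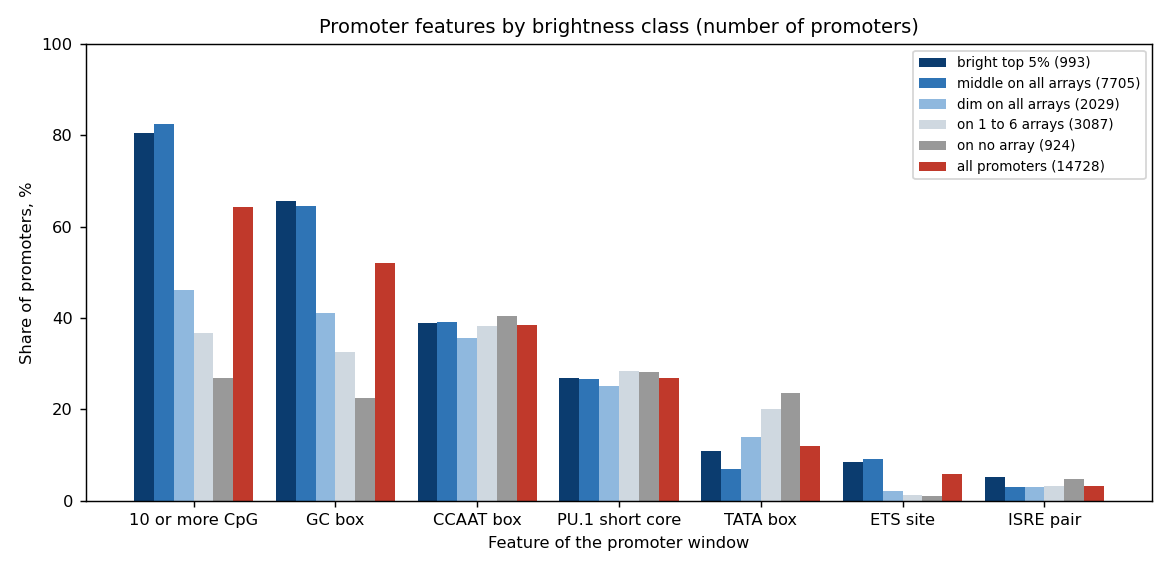
Share of promoter windows (y axis, percent) with at least 10 CpG or with a motif, for brightness classes and all 14728 promoters. The share with at least 10 CpG is 80.5% for bright promoters and 26.8% for genes on no array, while that with the PU.1 short core is 26.8% for bright and 26.9% for all promoters.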

How the data were processed

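RNA of 7 untreated macrophage cultures was measured on single-colour arrays. Per the file headers, the authors' scanner files were made with Agilent Feature Extraction 9.5.1 (version also in the submitters' processing notes) and hold intensity values per spot, detrended within the array and not scaled between arrays. They also hold calls of 0 or 1 per spot, in the deposited scanner files, for signal well above background. The authors' deposited value table holds log2 differences, and its values have a median of 0 over the untreated columns for every probe (within 0.001), so its levels could not be used. Its scaling between arrays is not known, its column medians ran from -0.102 to 0.312, and 21 columns of other samples in it were not used.

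Processed signals were divided by each array's 75th percentile and taken to log2. Control spots and outlier spots (79 to 414 an array) were left out, and spots of a probe were averaged. Of 41174 probes, 22951 were named by accession, 6659 by symbol and 3109 by synonym through RefSeq tables, and 8455 kept the array's name. A gene was counted on an array if any of its probes was well above background there, and its level was that of its brightest probe. Scan days were compared with limma 3.58.1 (R 4.3.3) on log2 values, tested on simulated data. That simulation was revised after its first versions misjudged the spread of the data, and the test itself was not changed. In its last version the test called 56.6% of genes shifted by a log2 of 2 on 1 scan day. For a shift of 3 it called 84.2%. Other steps used Python 3.11.15, pandas 2.3.3, numpy 2.4.6 and scipy 1.17.1, and the 7 arrays limit the precision.

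The members and the 42 gene lists were chosen with earlier results of these data known. The naming rule took the 40 brightest names, the 5 brightest members of each list, the 3 dimmest on all 7 arrays and any on none, the 20 genes of largest and 10 of smallest SD, and Csf1r and Mrc1. Genes named besides these were chosen after their values were seen. They include Tnf, Il1b, Il6, Il10, Arg1, Nos2, Myc, Spi1, Mertk, Tlr4, Scd2, Fdps, Hmgcs1, Apoc2, Thbs1, Ciita, B2m, Irf9 and most markers of other cell types given with a level. Promoters were searched for 11 motifs over 13 sets. Alternatives were another presence call, scaling, background correction, probe rule, gene names and leaving out each array. A presence call against the negative controls was added after seeing the data. Some genes that the naming rule selects are not reported here.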

Additional observations from a re-analysis of the deposited data

Results flagged for a closer look

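One array stood apart from the other untreated arrays, by a gap wide against the whole range, for 47 of 330 results tested. Chance flags about 1 in 20 such groups where they are not chosen by their values. The genes tested include those named for a large SD and others named after their values were seen. That rate therefore cannot be set against the 47. The array was G for 19, E for 12, D for 8, A for 4, and B and F for 2 each. No explanation was weighed.

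Array D had 414 outlier spots (next 215) and the low spots of Dctn1 (-4.90), Eepd1 (-4.44), Eya1 (-3.72), Nop53 (-3.79), Pdhx (-3.30), Rffl (-6.85) and Topbp1 (-5.77). Array E had the most negative control spots called well above background, 3.92% (next 1.96%). It was lowest for Adgre1 (6.81), Ctss (7.71), Fth1 (7.57), H2-T23 (6.86), Junb (4.84), Lyz1 (7.02), Mpeg1 (7.32), Pirb (6.99), Plcg2 (5.12), Rplp1 (7.13) and Zbp1 (4.48).

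Array G was highest for Arg1 (-4.61), C7 (-3.18), Ccl24 (-1.82), Cd68 (6.29), Clec4f (-3.46), Csf1r (6.90), Fgf2 (-3.38), Grn (7.92), Itga2 (-4.22), Itgb6 (-3.50) and Selplg (6.02). It was lowest for Fdps (1.72), Mif (2.73), Scd2 (2.61) and Spp1 (7.19). By list, its median deviation from the gene means was 1.15 for tissue resident macrophage factors, 0.26 for complement, 0.46 for IL-4 and IFN-γ state markers and -0.47 for glycolysis and hypoxia.

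Array A was highest for Fcer1a (-2.87) and lowest for S100a9 (3.47), and its median deviation was 0.28 for lipid and cholesterol handling and 0.29 for matrix proteases and coagulation. Array B was lowest for Itgb2 (5.00) and highest for Olr1 (-4.63). Array F was lowest for Arsb (-0.40), with a median deviation of -0.25 for costimulation and coinhibition.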

How the results depend on the processing

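Of 218 values recomputed under an alternative, 206 kept within the limit set for them and 12 moved. For a count that limit was wide, a ratio of up to 1.5 either way. By it, 984 of 1384 bright names shared, and 4809 names on no array in place of 3354, counted as kept. With the scanner software's more lenient call of positive and significant signal, 705 names were on no array in place of 3354, and 26 stromal and 27 epithelial, liver, nerve and muscle markers were on all arrays in place of 16 and 16. With normexp background correction 1 osteoclast marker was bright in place of 0. With the mean over probes, Csf1r lay at the 94.99th percentile of names and Mrc1 at the 97.68th, in place of 99.25 and 96.33, and 984 of the 1384 bright names remained bright, against 1331 or more under other scalings and normexp. With the bright class narrowed to the top 1%, its promoters held the TATA box in 15.9%, the PU.1 short core in 30.77%, the ETS site in 6.154%, the GC box in 56.92%, the NRF1 site in 1.026% and the ISRE pair in 8.205%. The cause of these moves was not tested beyond what each alternative changes.

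Leaving out each array in turn gave 16974 to 17465 names on all remaining arrays, 3409 to 4809 on none (the highest without array G), 1364 to 1373 bright names shared, 307 to 431 genes with an SD over 1, a median SD of 0.2853 to 0.3275, and percentiles of 99.12 to 99.31 for Csf1r and 96.08 to 96.66 for Mrc1. With a presence call that also required a signal above the 99th percentile of negative controls, chosen after seeing the data, 15822 names were on all arrays and 4397 on none. Limma's F test over scan days called 0 genes with quantile normalization and with normexp too, with 5541 and 202 unadjusted p under 0.05. No paired analysis was possible because no groups were compared.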

Other observations

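Integrins and other adhesion genes, and secreted growth factors, were not described above. Of 33 integrin and adhesion genes 27 were on all 7 arrays and 10 were bright. Cd81 (6.11), a tetraspanin, Itgb5, Selplg (5.55), the selectin ligand, Cd44 (5.41), the hyaluronan receptor, and Itgb2 led, while Itgb6 and Itga2 were on 1 array each. Of 30 secreted growth and repair factors 4 were bright, Spp1, Grn, Lgals3 and Igf1 (5.14), a growth factor that macrophages release in repair. Bmp7 (-4.67) and Fgf2 (-5.61) were dimmest on all arrays, and Areg was on none. Of 33 matrix protease and coagulation genes 5 were bright, with Timp2 (5.73), an inhibitor of matrix proteases, behind Adam8, and Serpinb2 (-5.15) was dimmest on all arrays.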
